A study of Mus musculus with 12 samples.

Results

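The genes described are 10 transcripts by which neutrophils are recognised, namely the calprotectin subunits S100a8 and S100a9, the granule genes Ngp, Ltf, Camp and Mmp8, and Csf3r, Retnlg, Chil3 and Mcemp1. They were taken by symbol as a given list from a table of 25428 rows, 24705 of which carried 1 gene symbol, and all 10 were found, with 1 row each. RNA came from mouse liver sinusoidal endothelial cells, the cells lining the liver's capillaries, and was hybridised to 12 Affymetrix arrays. The 6 Control arrays came from mice whose genotype the labels give as Ctrl, with nothing further in the sources used here. The 6 NICD-OE-HEC arrays came from mice carrying Clec4g-Cre(tg/wt) together with the Rosa26-N1ICD-IRES-GFP allele. Cre, driven by Clec4g, a gene of hepatic endothelium, switches on the intracellular domain of the Notch1 receptor with GFP in these mice. Ages were not given in the sources used here. Each sample pooled 3 mice, was digested with collagenase, enriched on a Nycodenz gradient and selected with magnetic beads against CD146 alone, and the labels name the samples of a group as biological replicates.

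Neutrophils build their granules in sequence while they mature in the bone marrow: primary granules, with myeloperoxidase and serine proteases, come first, and secondary granules, with lactoferrin and cathelicidin, and gelatinase granules follow. S100A8 and S100A9 form calprotectin, a calcium-binding and metal-chelating complex that fills the neutrophil cytosol and is released in inflammation. In the liver, neutrophils pass through the sinusoids and adhere to the endothelium. Factors of the C/EBP family and PU.1 drive the granulocyte programme, and RBPJ is the DNA-binding partner of the Notch intracellular domain.

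Shown are the stretches upstream of the calprotectin pair and of the secondary granule genes Ngp and Ltf, 4 of the 9 genes called higher. The factors above are known to act on the granulocyte programme, and their part in these values was not tested. Each stretch is the 250 bases before the RefSeq gene start in GRCm38.p6, printed on the gene's own strand. Capitals mark TTGCNNAA (C/EBP), AGGAAGT (PU.1) or TGGGAA (RBPJ), searched on both strands, so that a match on the other strand appears as its complement read backwards. S100a8 lies at chr3:90668821-90669070 on the plus strand, S100a9 at chr3:90695722-90695971 on the minus strand, Ngp at chr9:110419558-110419807 and Ltf at chr9:111019042-111019291, both on the plus strand.
S100a8: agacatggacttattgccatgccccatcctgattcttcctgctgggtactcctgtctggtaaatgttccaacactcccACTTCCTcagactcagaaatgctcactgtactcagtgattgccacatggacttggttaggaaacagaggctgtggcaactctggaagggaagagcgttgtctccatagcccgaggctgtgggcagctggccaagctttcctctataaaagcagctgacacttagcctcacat
S100a9: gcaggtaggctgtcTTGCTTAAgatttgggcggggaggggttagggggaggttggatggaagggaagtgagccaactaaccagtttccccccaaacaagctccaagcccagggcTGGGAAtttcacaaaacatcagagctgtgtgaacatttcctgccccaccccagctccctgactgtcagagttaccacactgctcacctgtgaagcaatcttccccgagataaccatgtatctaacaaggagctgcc
Ngp: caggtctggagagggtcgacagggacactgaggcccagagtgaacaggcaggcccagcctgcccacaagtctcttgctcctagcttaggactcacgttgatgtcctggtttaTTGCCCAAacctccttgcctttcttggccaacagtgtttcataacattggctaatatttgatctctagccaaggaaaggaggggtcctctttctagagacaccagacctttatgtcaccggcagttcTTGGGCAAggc
Ltf: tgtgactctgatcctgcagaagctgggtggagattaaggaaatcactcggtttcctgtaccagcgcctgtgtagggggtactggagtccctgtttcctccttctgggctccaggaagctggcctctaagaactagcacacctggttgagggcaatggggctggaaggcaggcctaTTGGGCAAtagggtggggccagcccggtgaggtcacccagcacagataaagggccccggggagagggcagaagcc
In S100a8 the capitals are a PU.1 match on the other strand, 172 to 166 bases before the start. S100a9 has a C/EBP match at 236 to 229 and an RBPJ match at 136 to 131 bases before it. The Ngp stretch holds 2 C/EBP matches, at 138 to 131 and at 11 to 4, and the Ltf stretch holds 1, at 75 to 68. Across the 10 genes, 5 stretches held the C/EBP letters (S100a9, Ngp, Ltf, Retnlg and Mmp8), against 9.56% of 32851 stretches of the same length. The PU.1 letters stood in 3 of the 10 (S100a8, Mmp8 and Chil3), against 7.69%, and the RBPJ letters in 2 of the 10 (S100a9 and Chil3), against 21.6%. No matches overlapped. A match describes letters only, and binding was not measured.

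Values are log2 expression values made by RMA, so a difference of 1 is a doubling. They carry no detection calls, and background was not measured. The median of every array, 3.67, was therefore taken as a floor, since lower values may not be separable from background. Fold changes are given only for genes above it. Differences of genes with a group mean below it, among them Clec4d, Cxcl2 and Cd209a in Control, are inexact. Arrays within a group correlated at 0.976 to 0.992 across rows. The first principal component, with 35.4% of the variance, separated the groups, and the second, with 16.4%, set Control 2 and NICD-OE-HEC 4 apart. Notch1 averaged 8.68 and 8.87, a difference of 0.19 that did not pass (limma adjusted p = 0.486), and whether its probes read the transgene was not given. Endothelial transcripts were high. Cdh5, an endothelial adhesion protein, averaged 11.5 in both groups. The mean of 12 endothelial markers ran from 10.87 to 11.17 in Control and from 10.75 to 10.98 in NICD-OE-HEC. Of these 12, 3 were called higher, among them Mcam by 0.92, and 6 lower, among them Stab2 with a difference of -1.32. Mcam encodes CD146, the antigen of the bead selection, and averaged 8.46 in Control and 9.38 in NICD-OE-HEC (limma adjusted p = 0.000107). Whether this changed which cells were selected was not tested. On the same arrays the Kupffer cell marker Clec4f averaged 9.53 and 9.80 in Control and NICD-OE-HEC, and the hepatocyte marker Alb 9.59 and 10.71.

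All 10 genes had a higher mean in NICD-OE-HEC, and 9 of them rose past an adjusted p of 0.05 in limma, while Camp did not. Over all rows, 4.89% were called higher and 5.59% lower. In 6 of the 10 every NICD-OE-HEC array lay above every Control array, a separation that 2.98% of all rows showed. The median difference over the 10 was 2.64, against -0.01 over all rows. None was lower, also at an unadjusted p under 0.05 (0) or by exact permutation (0). In these pools, more cells of a type and more RNA per cell cannot be told apart.

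**Figure D1:**
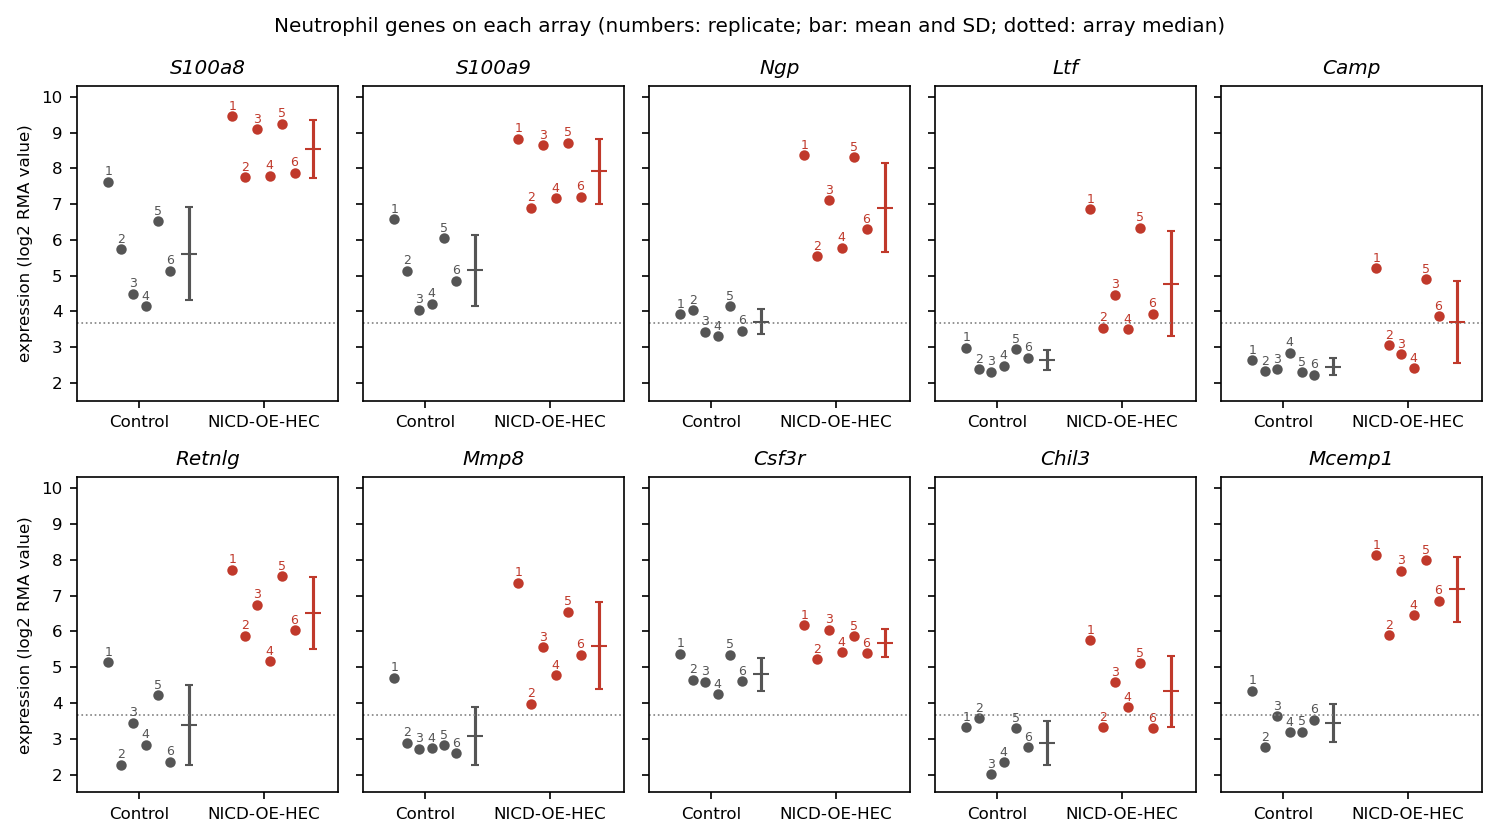
Log2 expression of each of the 10 genes on every array (vertical axis), with Control and NICD-OE-HEC side by side, numbers marking the replicate, bars the group mean and SD and the dotted line the array median of 3.67. The NICD-OE-HEC points lie above all Control points for 6 genes and overlap them for Camp, Mmp8, Csf3r and Chil3, and replicate 1 is the highest NICD-OE-HEC array in every panel.

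S100a8, which encodes the smaller calprotectin subunit, ran in Control from 4.15 to 7.62 with a median of 5.44, and in NICD-OE-HEC from 7.75 to 9.46 with a median of 8.49. The groups did not overlap, but Control 1 came within 0.13 of the lowest NICD-OE-HEC array. The means were 5.61 ± 1.30 and 8.54 ± 0.81 (SD, n = 6 each), a difference of 2.93 (SE 0.52, 95% interval 1.82 to 4.03), or 7.60-fold (3.52 to 16.4), with a limma adjusted p of 0.00144. S100a9, its partner in the heterodimer, ran from 4.05 to 6.57 in Control (median 5.00) and from 6.90 to 8.83 in NICD-OE-HEC (median 7.93), again without overlap. Its difference was 2.77 (SE 0.46, 1.79 to 3.75), 6.81-fold (3.46 to 13.44), with a limma adjusted p of 0.000796. Array by array, the subunits rose and fell together within each group: Pearson's r was 0.984 in Control (exact permutation p = 0.00278, adjusted 0.00556) and 0.993 in NICD-OE-HEC (exact permutation p = 0.0125, adjusted 0.0167). Spearman's rho was 0.943 in Control (exact permutation p = 0.0167, adjusted 0.0167) and 1.00 in NICD-OE-HEC (exact permutation p = 0.00278, adjusted 0.00556), the adjustment covering these 4 relations. Without the 2 arrays farthest from the median, r was 0.988 in Control and 0.993 in NICD-OE-HEC.

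The secondary granule genes were close to or below the array median in Control. Ngp, a neutrophil granule protein related to the cathelicidins and cystatins, ran from 3.31 to 4.15 in Control (median 3.69) and from 5.54 to 8.37 in NICD-OE-HEC (median 6.70). A gap of 1.39 separated the groups, and the difference was 3.18 (SE 0.44, 2.25 to 4.12), with a limma adjusted p of 0.000155. Ltf encodes lactoferrin, the iron-binding protein of these granules. It ran from 2.32 to 2.99 in Control (median 2.60), all below the array median, and from 3.51 to 6.85 in NICD-OE-HEC (median 4.20), where 2 arrays lay below it. The groups did not overlap, and the difference was 2.14 (SE 0.51, 1.06 to 3.22; limma adjusted p = 0.0118). Only NICD-OE-HEC 1 and 5 exceeded 6 log2 units for Ltf, at 6.85 and 6.34. Camp encodes the cathelicidin precursor, an antimicrobial peptide. It ran from 2.23 to 2.85 in Control (median 2.36) and from 2.42 to 5.22 in NICD-OE-HEC (median 3.46), with 4 arrays above the highest Control. Its difference of 1.26 (SE 0.40, 0.40 to 2.11) did not pass, with a limma adjusted p of 0.0615. It passed without NICD-OE-HEC 3 (1.44, adjusted p = 0.0398) or NICD-OE-HEC 4 (1.52, adjusted p = 0.0163), and over all alternatives the adjusted p ran from 0.0163 to 0.125.

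Mmp8, the neutrophil collagenase stored in later granules, ran from 2.59 to 4.70 in Control (median 2.78) and from 3.98 to 7.36 in NICD-OE-HEC (median 5.46). The groups overlapped only through Control 1, the highest of its group by a wide margin, and 5 of 6 NICD-OE-HEC arrays lay above it. The difference was 2.52 (SE 0.49, 1.46 to 3.58; limma adjusted p = 0.00315), and by exact permutation the adjusted p was 0.0504, the highest of the alternatives, which began at 0.000324. Csf3r is the receptor for granulocyte colony-stimulating factor, which sustains neutrophil production. It ran from 4.25 to 5.38 in Control (median 4.63) and from 5.22 to 6.17 in NICD-OE-HEC (median 5.64), with overlap. Its means were 4.80 ± 0.46 and 5.68 ± 0.39 (SD, n = 6 each), a difference of 0.88 (SE 0.21, 0.42 to 1.33), or 1.84-fold (1.34 to 2.52). Csf3r had the smallest difference of the 10, with a limma adjusted p of 0.0138 and 0.00239 to 0.0899 over the alternatives, the highest by exact permutation.

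Retnlg, a resistin-like secreted protein of myeloid cells, ran from 2.28 to 5.13 in Control (median 3.14) and from 5.17 to 7.72 in NICD-OE-HEC (median 6.39). Control 1 lay only 0.04 below the lowest NICD-OE-HEC array, so the groups barely separated. The difference was 3.13 (SE 0.51, 2.04 to 4.23; limma adjusted p = 0.000693). Chil3 encodes a secreted chitinase-like lectin of myeloid cells. It ran from 2.01 to 3.58 in Control (median 3.03) and from 3.29 to 5.75 in NICD-OE-HEC (median 4.23), with overlap. Its difference was 1.44 (SE 0.40, 0.59 to 2.29; limma adjusted p = 0.0305). This call was lost without Control 3, 4 or 6 or without NICD-OE-HEC 1, 3 or 5, the difference running from 1.15 to 1.64 with 1 array left out (limma adjusted p from 0.0164 to 0.078). It was also lost by exact permutation, at an adjusted p of 0.11, the highest of the alternatives, which began at 0.0154. Mcemp1, a membrane protein of myeloid and mast cells, lay below the array median on 5 of 6 Control arrays, where values may not be separable from background. It ran from 2.77 to 4.34 in Control (median 3.36) and from 5.90 to 8.13 in NICD-OE-HEC (median 7.28), with a gap of 1.55 between the groups. The difference was 3.73 (SE 0.36, 2.96 to 4.50; limma adjusted p = 4.84e-06), inexact for that reason.

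**Figure D2:**
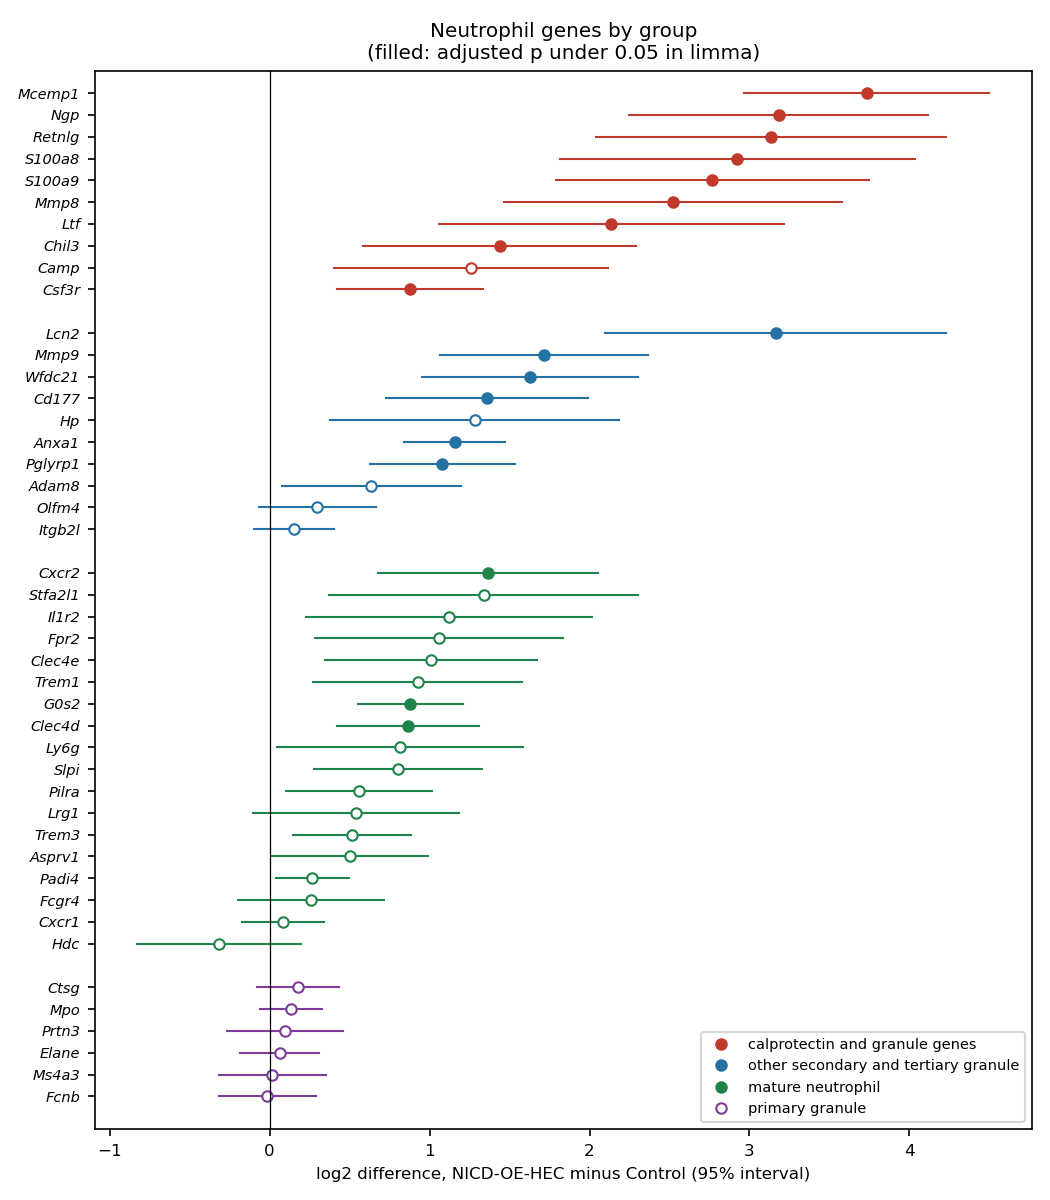
Difference of each of the 10 genes, NICD-OE-HEC minus Control, in log2 units (horizontal axis) and of the 34 other neutrophil genes, each with its 95% interval and coloured by list, with filled points for an adjusted p under 0.05 in limma. Mcemp1 lies highest at 3.73 and Csf3r lowest of the 10 at 0.88, and the primary granule genes lie between -0.01 and 0.18.

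The size of the rise varied from array to array, and the same arrays led for most of the genes. NICD-OE-HEC 1 was the highest of its group for all 10 genes, and NICD-OE-HEC 1, 3 and 5 were the 3 highest for 9 of them. NICD-OE-HEC 2 was the lowest for 6, NICD-OE-HEC 4 for 3 and NICD-OE-HEC 6 for 1. Relative to the group mean, the median deviation of the 10 genes was 1.32 on NICD-OE-HEC 1, 0.88 on 5 and 0.24 on 3, against -1.004 on 2, -0.78 on 4 and -0.54 on 6. Even so, the numbers of genes above every Control array were 10, 7, 9, 9, 10 and 9 on NICD-OE-HEC 1 to 6. In Control, array 1 was the highest for 7 genes, with a median deviation of 0.74, and array 5 followed with 0.42.

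**Figure D3:**
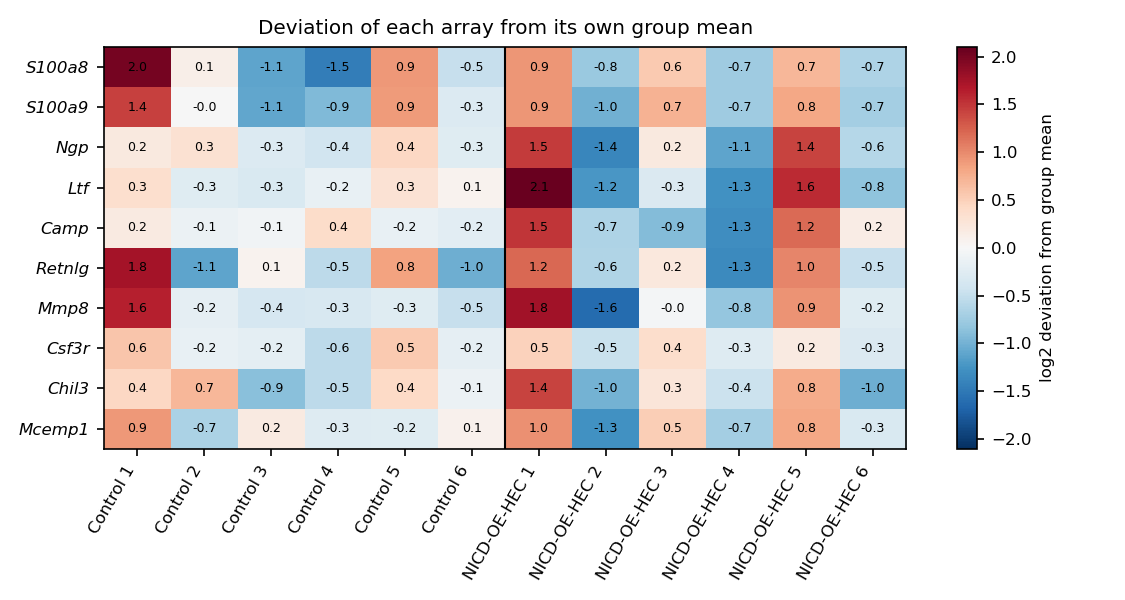
Deviation of each of the 10 genes (rows) from its own group mean on each array (columns), in log2 units, red above and blue below the mean. The NICD-OE-HEC arrays 1 and 5 lie above their group mean for all 10 genes, and arrays 2 and 4 below it for all 10.

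The spread between arrays was large for these genes: each one's residual SD lay between the percentiles 93.6 and 99.9 of all rows. As a description over 45 gene pairs, r within NICD-OE-HEC ran from 0.536 to 0.993 (median 0.901, n = 6 arrays), and all 45 were positive. Within Control it ran from -0.351 (Ngp with Camp) to 0.984 (median 0.623), with 37 pairs above 0, and 6 of the 10 genes had Control means below the array median. Beyond the list, the named genes most like the mean of 8 members (all but Camp and Chil3), each centred within its group (n = 12 arrays), were Il1f9 (r 0.937), Mmp9 (0.931), Helz2 (0.919), Cxcr2 (0.909), Lcn2 (0.907), Lrg1 (0.898), Clec4e (0.896) and Slfn4 (0.896). The 8 members were those whose mean over all 12 arrays exceeded the array median. Ltf, Retnlg, Mmp8 and Mcemp1 did so only through NICD-OE-HEC, so the order is a description. Of the 8 named genes, 4 were called higher in NICD-OE-HEC: Il1f9, an interleukin-1 family cytokine (1.10, limma adjusted p = 0.0422), Mmp9, Cxcr2 and Lcn2. Helz2 moved with the members between arrays yet differed by only 0.19 between the groups (limma adjusted p = 0.307), and Lrg1 by 0.54 (limma adjusted p = 0.336).

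Other neutrophil genes were taken from 3 lists, of which 34 of 38 genes were measured. In all, 9 rose, 0 fell and 25 did not pass, with a median difference of 0.72 and 32 of 34 positive. At an unadjusted p under 0.05 none fell, and by exact permutation 6 rose and 0 fell. The count of 9 became 15 with array weights and 14 without NICD-OE-HEC 4.

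Among 10 other genes of secondary and tertiary granules, 6 rose, with a median of 1.22. Lcn2, the siderophore-binding lipocalin of secondary granules, went from 5.09 ± 0.94 to 8.25 ± 1.13 (SD, n = 6 each), a difference of 3.16 (SE 0.50; limma adjusted p = 0.000508), with no overlap. The gelatinase Mmp9 rose by 1.72 (limma adjusted p = 0.00145), Wfdc21 by 1.63 (0.00293) and Cd177, a neutrophil surface protein, by 1.36 (0.00672). Anxa1, which other cells also make, rose by 1.16 (8.02e-05) and Pglyrp1, which binds bacterial peptidoglycan, by 1.08 (0.00331). Hp, the haptoglobin gene, which hepatocytes also express, differed by 1.28 without passing (limma adjusted p = 0.071). Adam8 (0.64), Olfm4 (0.30) and Itgb2l (0.15) did not pass.

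None of 6 primary granule genes passed in limma, at an unadjusted p under 0.05 (0) or by exact permutation (0). Their median difference was 0.08, and 5 of the 6 averaged below the array median in both groups. Mpo, myeloperoxidase, differed by 0.13 (limma adjusted p = 0.461), and Ctsg, cathepsin G, by 0.18 (0.453). Of 18 measured receptors and other genes of mature neutrophils, 3 rose: the chemokine receptor Cxcr2 by 1.37 (limma adjusted p = 0.0117), G0s2 by 0.88 (0.00128) and the lectin Clec4d by 0.87 (0.0127). Of these 18, 17 were positive, with a median of 0.81. Ly6g, the surface antigen by which mouse neutrophils are sorted, ran from 2.05 to 2.95 in Control and from 2.31 to 4.60 in NICD-OE-HEC. It was above every Control on arrays 1, 5 and 6, at 4.60, 4.39 and 3.37, and its difference of 0.82 did not pass (limma adjusted p = 0.198).

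Of 6 transcription factors of granulocyte development, Cebpd rose by 1.05 (limma adjusted p = 0.0123) and Cebpb by 0.66 (0.0157). By exact permutation neither passed, at adjusted p of 0.0504 for Cebpd and 0.0649 for Cebpb, and over all alternatives the adjusted p began at 0.00444 and 0.00202. Both are also induced in many other cells under stress. Cebpe, which drives secondary granule genes in the marrow, differed by 0.10 (limma adjusted p = 0.679) and Gfi1 by -0.15 (0.631).

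Among 13 further S100 genes and calprotectin receptors, S100a6 rose by 1.77 (limma adjusted p = 2.48e-06) and S100a4 by 0.74 (0.004), the latter from 2.82 to 3.56, below the array median in both groups, while S100a1 fell by 1.14 (0.000171). The calprotectin receptor Tlr4 differed by 0.05 (limma adjusted p = 0.88). Among 12 chitinase-like, resistin-like, transferrin and metalloprotease relatives, 4 rose: Mmp12 by 2.18, Mmp13 by 1.17, Trf by 1.06 and Retn by 0.68. Retn averaged below the array median in both groups and Mmp13 in Control, so their differences are inexact, and by exact permutation 3 of the 12 passed, without Trf.

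The attractants of neutrophils and the adhesion molecules they use were also read. Of 15 attractants and growth factors, 6 rose, among them Ccl3 by 2.25 (limma adjusted p = 0.00016), Cxcl2, a CXCR2 ligand, by 1.88 (0.00702), Ccl4 by 1.33 (0.000309) and Il1b by 1.18 (0.0102). The median difference over the 15 was only 0.05, and 9 were positive. Csf3, the ligand of the receptor Csf3r, differed by -0.12 (limma adjusted p = 0.74). Of 13 adhesion molecules 6 rose, among them the endothelial selectin Sele by 2.47 (limma adjusted p = 0.000193) and Vcam1 by 1.19, and, of the leukocyte integrins, Itgam by 1.22 (0.00768) and Itgb2 by 0.75 (0.0107). By exact permutation 3 of the attractants and 2 of the adhesion molecules passed, and Cxcl2, Il1b, Itgam and Itgb2 did not, at adjusted p of 0.0649, 0.078, 0.0649 and 0.078, each the highest of its alternatives. The lowest were 0.00224, 0.00124, 0.000231 and 0.00114.

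**Figure D4:**
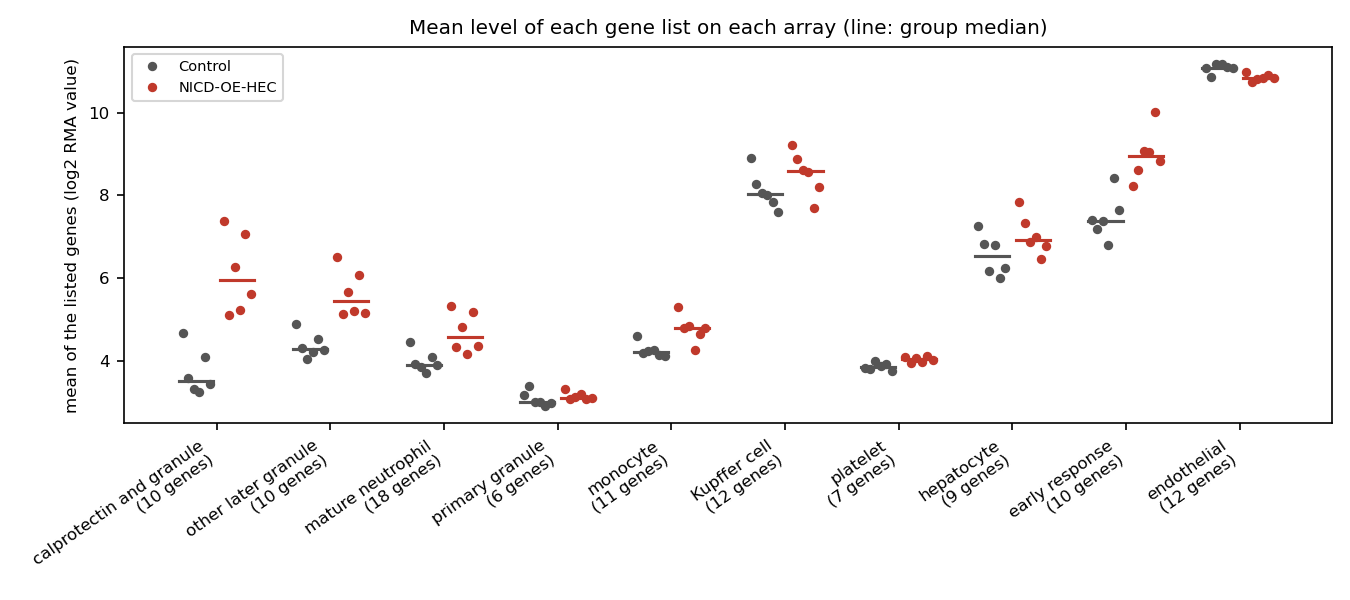
Mean log2 expression over the genes of 10 of the lists (horizontal axis) on each array, 1 point per array, with Control and NICD-OE-HEC side by side and lines at the group medians. The mean of the 10 genes ran from 3.23 to 4.66 in Control and from 5.11 to 7.39 in NICD-OE-HEC.

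Markers of other cell types were set beside these values, and their part in the result was not tested. The limma shares to set beside their counts are 4.89% higher and 5.59% lower over all rows. Of 11 monocyte markers 2 rose (Plac8 by 1.27 and Cx3cr1 by 0.66), with a list mean of 4.11 to 4.59 in Control and 4.26 to 5.29 in NICD-OE-HEC, while Ly6c2 differed by 0.15 and Ccr2 by 0.42 without passing. All 11 were positive, with a median difference of 0.46, and 5 were higher at an unadjusted p under 0.05. By exact permutation 1 of the 11 passed, and Cx3cr1 did not. Of 12 Kupffer cell markers 1 rose (Marco by 1.49), none by exact permutation (0), with a list mean of 7.61 to 8.90 and 7.70 to 9.22. Of the 12, 11 were positive, with a median difference of 0.35, and 3 were higher at an unadjusted p under 0.05. All 10 eosinophil, basophil and mast cell markers averaged below the array median in both groups and none passed, nor did any at an unadjusted p under 0.05 (0) or by exact permutation (0). Of 7 B cell and 10 T and NK cell markers none passed in limma or by exact permutation (0), and 2 and 0 were higher at an unadjusted p under 0.05. Of 9 dendritic markers 1 rose (Cd209a by 2.22) and 2 fell (Zbtb46 by 0.99 and Clec9a by 0.91), and of 7 platelet markers 1 rose (Pf4 by 0.56). None of 5 erythroid markers passed in limma, by exact permutation or at an unadjusted p under 0.05 (0). Of 9 hepatocyte markers 3 rose, Alb by 1.13, Ttr by 0.89 and Apoa1 by 0.86, with list means of 5.99 to 7.27 and 6.45 to 7.84. Of the 9, 7 were positive, with a median difference of 0.86. At an unadjusted p under 0.05, 5 of the 9 were higher and 1 was lower. The calls of Ttr and Apoa1 held in 3 and 4 of 12 fits with 1 array left out (limma adjusted p from 0.016 to 0.107 and from 0.0181 to 0.1). Both were kept without Control 1, Control 2 or NICD-OE-HEC 5, and that of Apoa1 also without NICD-OE-HEC 6. By exact permutation 1 of the 9 passed. Of 10 stellate and fibroblast markers 3 rose, among them Col1a1 by 2.49, and 2 fell, and of 12 endothelial markers 3 rose and 6 fell. Of 10 early-response genes that isolation can induce, 8 rose, with list means of 6.79 to 8.41 and 8.23 to 10.02. All 10 were positive, with a median difference of 1.54, and by exact permutation 3 of the 10 passed.

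List means were compared with the mean of the same 8 members, without Camp and Chil3, across the 12 arrays, each centred within its group. That mean ran with the mean of the mature neutrophil list (r 0.979) and the later granule list (0.960). For the primary granule list, most of whose genes averaged below the array median, r was 0.227. Ltf, Retnlg, Mmp8 and Mcemp1 are among the 8 only through NICD-OE-HEC, so these values are a description. With other lists r was 0.885 for the adhesion list, 0.812 for the eosinophil, basophil and mast cell list, whose genes all averaged below the array median, 0.648 for the attractants, 0.637 for the monocyte list, 0.266 for the early-response list, 0.207 for the hepatocyte list and 0.204 for the Kupffer cell list. Values of r were negative for the S100 and receptor list (-0.567), the relatives (-0.526), the stellate list (-0.326) and the dendritic list (-0.141). All these lists come from the same arrays.

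In the genome, 3 of the genes lie on chromosome 3 (S100a8, S100a9 and Chil3) and 4 on chromosome 9 (Ngp, Ltf, Camp and Mmp8), from RefSeq GRCm38.p6. Of 14 measured genes next to a member and not members themselves, 3 rose, 1 fell and 10 did not pass, against 4.89% higher and 5.59% lower over all rows. S100a7a, on the other side of S100a8 from S100a9, differed by 0.08 (limma adjusted p = 0.771). Mcemp1 lies between Retn and Fcor. Fcor, a corepressor of FOXO1, went from 3.89 to 4.31 in Control to 8.88 to 9.58 in NICD-OE-HEC, a difference of 5.08 (SE 0.14; limma adjusted p = 1.25e-11).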

How the data were processed

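Expression was measured on 12 arrays, 6 per group and 1 per pooled sample. The table the authors deposited holds log2 values, 1 for every row and array, from RMA, per the submitters' processing notes. RMA equalises the arrays' distributions, so a shift of most genes one way would not show. The software, chip definition and build were not given in the sources used here. Gene symbols came from the platform annotation of 2018.

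NICD-OE-HEC minus Control was fitted in R 4.3.3 by limma 3.58.1 (functions lmFit and eBayes, group as the factor, no covariates) on all 25428 rows, with Benjamini-Hochberg adjustment over all of them and an adjusted p under 0.05 as a call. SE denotes the moderated standard error, intervals are 95%, all tests are two-sided, and the exact permutation test used 924 assignments, with 0.002165 as the smallest p. The limma step was tested on simulated data. The number of arrays limits the precision.

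Genes set to be named were all 10 members, every called gene of the 3 neutrophil lists and the 8 genes most like the members' mean. Each other list added up to 4 called genes, or the 2 with the largest difference if none was called. Not every gene so chosen is named, and the B cell, T and NK cell and erythroid lists are given as counts only. Genes outside this rule were named after their values were seen. Of the 38 neutrophil genes listed, 4 had no row matched and were not analysed here. The members and lists were chosen with earlier results of these data known. Alternatives numbered 22, and the fit without Control 2 and NICD-OE-HEC 4 was chosen after seeing the data.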

Additional observations from a re-analysis of the deposited data

Results flagged for a closer look

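In 6 of 146 groups of 6 arrays examined, 1 array stood far from the other 5, where chance gives about 1 in 20. The count is not above that rate. Among the 10 genes this was Mmp8 on Control 1, at 4.70 with the next array at 2.89. The others were Trf on Control 1 at 9.94 (next 8.77), Hgf on Control 1 at 8.97 (next 8.13), Zfp36 on Control 5 at 9.29 (next 8.29), Sele on NICD-OE-HEC 5 at 8.33 (next 6.48) and Ccr3 on NICD-OE-HEC 1 at 3.06 (next 2.31), the last below the array median.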

How the results depend on the processing

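The count of members called higher, 9, was 8 to 10 under all alternatives except exact permutation, which gave 6 (adjusted p 0.0324 each); leaving out 1 array at a time gave 8 to 10, and 0 were lower throughout. No difference changed sign. S100a8, S100a9, Ngp, Ltf, Retnlg and Mcemp1 kept their call in all 21 alternatives. Without the dimmest 50% of rows, Camp and Chil3 were not tested and the other 8 were called, but Ltf, Retnlg, Mmp8 and Mcemp1 stayed in only through NICD-OE-HEC, so this is no check of them. Array weights, and the fit without Control 2 and NICD-OE-HEC 4, each called all 10. The replicate numbers were not shown to pair the samples: deviations of same-numbered arrays correlated at -0.10 to 0.22, over 0.1 in 3 of 6 pairs, and 3 Control and 2 NICD-OE-HEC arrays matched their own number best. With the replicate number as a block 9 members, 19 of the 34 other neutrophil genes, and 69 higher and 13 lower of all 204 listed genes were called. The other neutrophil genes called, 9, became 15 with array weights, 15 without Control 2 and NICD-OE-HEC 4, and 9 to 14 with 1 array left out. Of the 204 listed genes 50 were higher, 27 by exact permutation and 45 to 56 with 1 array left out; 11 were lower, 3 with a log2 difference of at least 1 and 11 to 12 with 1 array left out. The causes were not tested. Levels below the array median limit Ltf, Camp, Retnlg, Mmp8, Chil3 and Mcemp1, whose Control means lie below it, so their differences are inexact.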

Other observations

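Control 1 and NICD-OE-HEC 2 had S100a8 values of 7.62 and 7.75, while the gaps of the other genes varied. This pair of arrays was chosen after the values were seen and has no test. S100a9 was 6.57 on Control 1 and 6.90 on NICD-OE-HEC 2. Mcemp1 was 4.34 and 5.90, and Ngp was 3.92 and 5.54, both higher on NICD-OE-HEC 2. Retnlg was 5.13 and 5.88. Mmp8 ran the other way, at 4.70 on Control 1 and 3.98 on NICD-OE-HEC 2, and Csf3r was 5.38 and 5.22. Chil3 was 3.32 and 3.33, Camp 2.64 and 3.06 and Ltf 2.99 and 3.55, all below the array median on both arrays.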
